A study of Mus musculus with 84 samples.

Results

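Fenthion (FT) and methidathion (MT) were compared at the dose they share, 10 ppm in the diet, in the livers of 14 of the 84 mice of the series. The members were every mouse of the FT10ppm group (7 mice) and every mouse of the MT10ppm group (7 mice), and no control mouse entered the comparison. All were male B6C3F1 mice, 8 weeks old at the start, that ate diet holding FT or MT for 7 days at an intake of 1.5 mg/kg body weight/day for both compounds. TempO-Seq, which joins 2 neighbouring probes hybridised to a target RNA and counts the joined product by sequencing, was run on liver RNA. Blocks of the experiment were balanced, with 2 mice per group from block 1, 3 from block 3 and 2 from block 4. Expression Analysis (EA) prepared the RNA of 13 mice, and the U.S. EPA that of replicate 7 of MT10ppm, a block 1 mouse. The mice were group-housed and diets were given by cage, but the labels name no cages, so p-values measure the spread between these mice, some of which may have shared a cage.

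FT and MT are both O,O-dimethyl organophosphorus pesticides (OPPs) with a sulfur on phosphorus. FT is a phosphorothioate whose leaving group is a phenol that carries a methylthio group, and MT is a phosphorodithioate whose leaving group carries a thiadiazole ring. In the liver, cytochrome P450 enzymes turn such thiophosphates into oxons, the forms that inhibit acetylcholinesterase (Ache) and butyrylcholinesterase (Bche) by binding the active-site serine. Carboxylesterases, paraoxonases and glutathione S-transferases remove or degrade the oxons and their parents, and flavin monooxygenases can oxidise a thioether such as that of FT. A matched dose asks whether livers exposed to these structures differed in their transcripts. This was the only pair of compounds compared.

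Libraries held from 8733512 to 13528658 counts, with no detectable difference in total between the groups (exact permutation test, two-sided, p = 0.895). In such libraries 3 counts, taken as the smallest number measured, equalled 0.222 to 0.344 CPM (counts scaled to the size of the library). The liver label fitted the markers, since the 10 hepatocyte markers in the table summed to 44184 to 48770 CPM in FT10ppm and 44116 to 52469 CPM in MT10ppm, while the pancreatic acinar markers summed to at most 7.32 CPM. A pair of mice stood apart. FT10ppm replicate 2 differed by more than 2-fold from the median of the 14 mice in 663 genes and MT10ppm replicate 7, the EPA mouse, in 350 genes, against 25 to 90 genes in the other 12 mice. Because the isolator term of the model has a single EPA mouse, that mouse is fitted exactly, and every log2 fold change below rests on 7 FT10ppm mice against 6 MT10ppm mice. Its values are given beside the others.

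No gene passed the adjusted test between FT10ppm and MT10ppm in the main model. With edgeR's quasi-likelihood test, block and isolator as covariates and Benjamini-Hochberg adjustment, 0 of 10348 genes (0%) had an adjusted p under 0.05. Without adjustment, p was under 0.05 for 685 genes (6.62%), 363 higher with FT (3.51%) and 322 higher with MT (3.11%). The fitted difference reached 2-fold in either direction for 46 genes (0.445%), of which 15 were higher and 31 lower with FT. DESeq2's Wald test with the same covariates called 20 genes (0.193%), edgeR without the filter on low counts called 4 of 17002 (0.0235%), and limma called 0 both on log2(CPM + 1) and with voom weights. When neither FT10ppm replicate 2 nor the EPA mouse entered, edgeR again called 0 genes, and 841 of 10335 (8.14%) had an unadjusted p under 0.05. Fewer cells of a type and less RNA per cell cannot be told apart in these bulk livers. In the sentences that follow, "higher" and "lower" describe fitted values and levels of FT10ppm relative to MT10ppm, and none of the genes passed the adjusted test of edgeR.

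Bche, the cholinesterase that the liver makes and secretes into plasma, was higher in FT10ppm than in MT10ppm by a test of the single gene, though not by the test over all genes. The gene (ENSMUSG00000027792, mm39 chr3:73543141-73615748, minus strand) was measured at 182 CPM in the lowest, 199 in the median and 218 in the highest FT10ppm mouse, and at 132, 161 and 207 CPM in MT10ppm. The highest MT10ppm value was that of the EPA mouse. The EA-isolated MT10ppm mice ended at 173 CPM, so that all 7 FT10ppm mice lay above all 6 of them. Such a separation of the EA mice, with FT above, was found for 8 of 10348 genes (0.0773%). The means were 199 ± 13.5 CPM and 160 ± 25.95 CPM (SD, n = 7 each), and the fitted fold was 1.34 (log2 fold change 0.42, SE 0.10, edgeR adjusted p = 0.466 over all genes). An exact two-sided permutation test of log2(CPM + 1) over the 14 mice, which takes no account of isolator, gave a difference of 0.33 and p = 0.00524, and p = 0.00556 when mice changed places only within blocks. Without the EPA mouse the difference was 0.40 and the exact permutation p 0.000583, the smallest that 1716 splits allow. That p restates the separation of the EA mice. Random labels would give it, with FT above, with the same probability, which is near the share of genes that showed it. Adjusted over the 2 cholinesterases, the permutation p was 0.0105 over the 14 mice and 0.00117 without the EPA mouse. The 2 genes were named with earlier results of these data known, and this adjustment does not cover that choice. The direction of the Bche difference was the same in each block, with differences of mean log2(CPM + 1) of 0.33 in block 1, 0.36 in block 3 and 0.29 in block 4. The block 1 value includes the EPA mouse and was 0.65 without it, which leaves 1 MT10ppm mouse in that block. Block 1 values below include the EPA mouse unless stated, and the value without it always rests on that 1 mouse. Bche was among the 20 genes that DESeq2 called (adjusted p = 0.0356, and between 0.0356 and 0.999 over the alternatives).

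Ache, the main synaptic target of OPPs, was near the limit of measurement in liver. It had a median of 4.5 counts over the 14 mice, with a lowest count of 1 and a highest of 9, and did not pass the filter of a median count above 8. Its level was 0.339 ± 0.165 CPM in FT10ppm and 0.478 ± 0.241 CPM in MT10ppm (SD, n = 7 each). The ranges overlapped almost wholly, 0.115 to 0.591 against 0.102 to 0.804 CPM, and the exact permutation test gave p = 0.258. A difference in Ache was not detectable at this depth. Permutation tests were run for these 2 cholinesterases only.

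**Figure D1:**
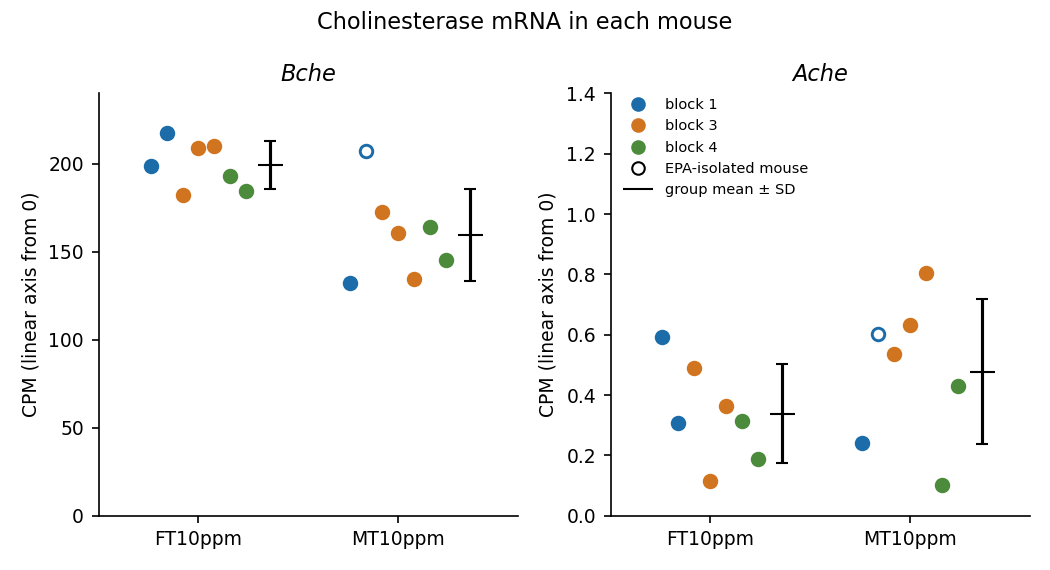
Level of Bche (left) and Ache (right) in CPM on linear axes from 0, by group; each point is a mouse, coloured by block, the hollow point is the EPA-isolated mouse, and bars give the group mean ± SD (n = 7). For Bche the FT10ppm mice lie between 182 and 218 CPM and the EA-isolated MT10ppm mice between 132 and 173 CPM; for Ache the groups overlap.

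The acute phase list had the largest median difference among the 26 gene lists. It holds mainly proteins that hepatocytes secrete when interleukin 6 and interleukin 1 reach the liver. The list also includes receptors, regulators and intracellular proteins, such as Il6ra, Stat3 and Mt2. Of its 36 tested members, 35 were lower with FT and 1 (Hamp2) was higher, while 5217 of all 10348 genes were lower. Unadjusted p was under 0.05 for 17 lower members and for Hamp2, which is 50.0% of the list against 6.62% of all genes, and the median log2 fold change was -0.51 against -0.0014 for all genes. Without FT10ppm replicate 2 and the EPA mouse, 35 of 36 were again lower, 23 of them with an unadjusted p under 0.05, with a median of -0.46. Many of these genes are known to be induced together, so the count is not one of independent results.

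Lcn2 encodes lipocalin 2, which binds bacterial siderophores. Its lowest, median and highest levels were 7.79, 17.7 and 203 CPM in FT10ppm and 5.94, 155 and 866 CPM in MT10ppm (log2 fold change -3.33, SE 0.85, edgeR adjusted p = 0.466). The groups overlapped: FT10ppm replicate 6 stood at 203 CPM, above 4 of the 7 MT10ppm mice, and the EPA mouse had the lowest value of all. Saa1, a serum amyloid A apolipoprotein of high-density lipoprotein, ranged from 60.05 to 6237 CPM around a median of 256 CPM in FT10ppm and from 125 to 12683 CPM around 1677 CPM in MT10ppm (log2 fold change -3.26, SE 0.89). Saa2 followed it, with medians of 158 and 990 CPM (log2 fold change -3.98, SE 1.13). Saa1 and Saa2 are near-identical copies whose reads the authors' counting could split, so their separate values are uncertain. Orm2, an orosomucoid that carries lipophilic ligands in plasma, had medians of 13.6 CPM (3.70 to 31.6) and 27.4 CPM (2.84 to 117; log2 fold change -2.01, SE 0.39). The EPA mouse, at 2.84 CPM, had the lowest Orm2 of the 14 mice.

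Members with high and steadier levels pointed the same way with smaller differences. Haptoglobin (Hp), which binds free hemoglobin, had a median of 3706 CPM (2456 to 6430) with FT and 6081 CPM (1529 to 8386) with MT (log2 fold change -0.80, SE 0.21). For Lbp, the lipopolysaccharide-binding protein, the medians were 302 CPM (243 to 593) and 503 CPM (191 to 1262; log2 fold change -1.04, SE 0.29). Hemopexin (Hpx), serum amyloid P (Apcs), Serpina3n and the fibrinogen chain Fgg had log2 fold changes of -0.58, -0.63, -0.56 and -0.48. Hamp2, a hepcidin-like gene, went the other way, with a median of 6.03 CPM (1.23 to 12.7) against 2.08 CPM (0.905 to 14.6; log2 fold change 1.25, SE 0.31), and its highest value was that of the EPA mouse.

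The acute phase difference was smaller in block 4 than in block 3. For Lcn2, the difference of mean log2(CPM + 1) was -3.68 in block 3, -0.72 in block 4 and -1.69 in block 1, where it was -3.94 without the EPA mouse. For Saa1 it was -4.04 in block 3, 0.19 in block 4, the opposite sign, and -2.08 in block 1, or -3.95 without the EPA mouse. For Orm2 it was -1.98, -1.03 and -0.91, or -2.30 without that mouse. Differences between blocks were not tested. Most tested markers of Kupffer cells, and the 2 tested neutrophil markers, were also lower with FT. The 13 Kupffer cell markers in the table summed to 212 to 374 CPM (median 282) in FT10ppm and 249 to 404 CPM (median 297) in MT10ppm. Of the 11 tested ones, 10 were lower with FT, C1qc and Clec4f with an unadjusted p under 0.05 (18.2% against 6.62% of all genes). The 9 neutrophil markers in the table summed to 1.16 to 5.66 CPM and 3.26 to 10.3 CPM, with Ngp at 0 in all 14 mice. Of the 2 that were tested, S100a8 had a log2 fold change of -1.30 (SE 0.39) and Ly6g of -0.20 (SE 0.33). S100a8 was low, with means of 0.745 CPM in FT10ppm and 1.96 CPM in MT10ppm, where 3 counts equalled 0.222 to 0.344 CPM. Other cell types did not share this direction throughout. With FT, 10 of 11 tested stellate cell and fibroblast markers, 4 of 4 lymphocyte markers and 7 of 13 endothelial markers were higher. All 4 tested erythroid markers were lower. The part of any cell type in the acute phase difference was not tested.

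**Figure D2:**
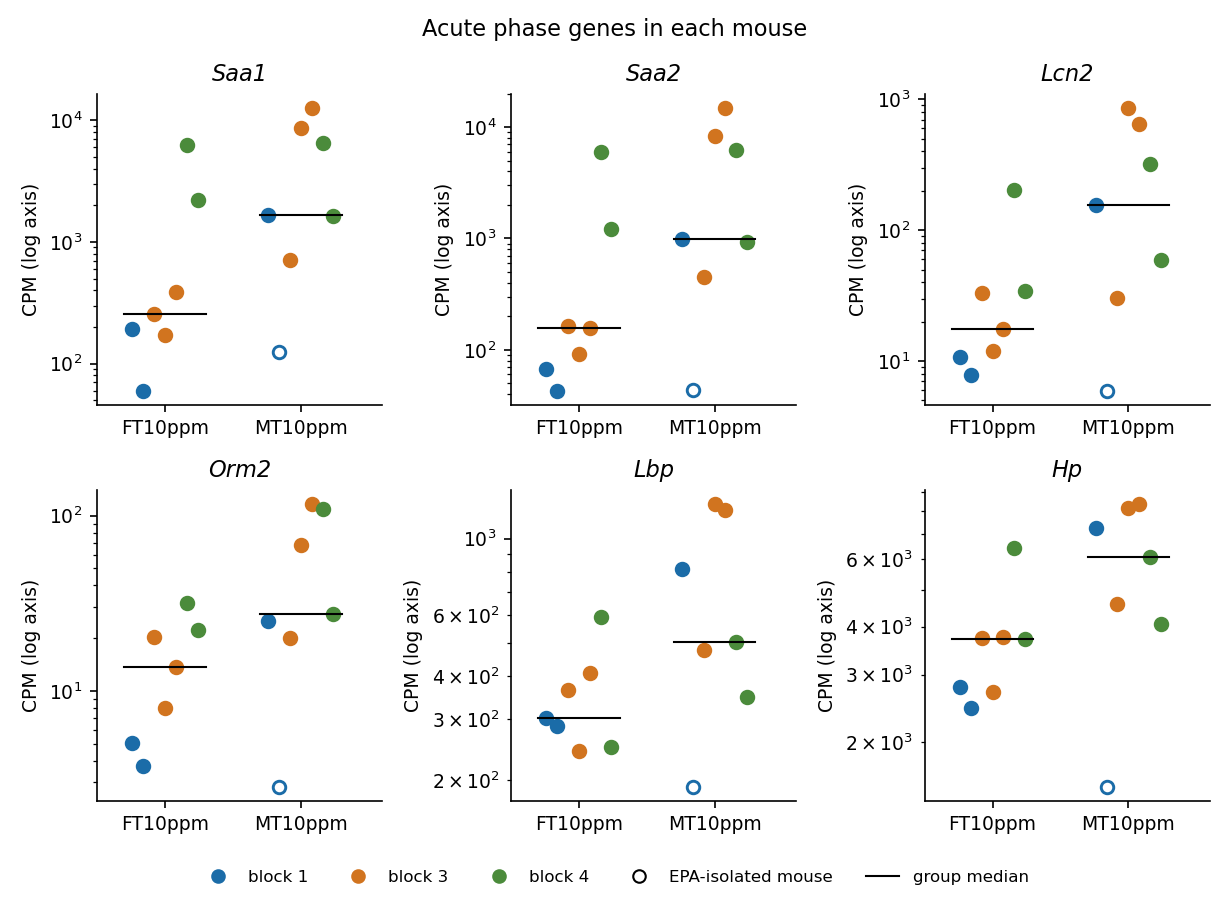
Level of 6 acute phase genes in CPM on log axes, by group; each point is a mouse, coloured by block, the hollow point is the EPA-isolated mouse and the line is the group median. The FT10ppm medians lie below the MT10ppm medians (for Lcn2 17.7 and 155 CPM), and the EPA mouse has the lowest Lcn2 of the 14 mice.

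The promoters of 3 of these genes are shown because these members had large differences and because binding sites of the factors that drive the acute phase response are often close to the start of transcription. Each runs 5′ to 3′ from 250 bases before to 49 bases after the first base of the Ensembl canonical transcript on GRCm39, the assembly also called mm39. Capitals mark matches to a C/EBP site (TTGCNNAA), to the kappa B consensus of NF-kB or to a STAT site (TTCNNNGAA), on either strand. The windows are chr7:46400964-46401263 (plus strand) for Saa2, chr2:32277760-32278059 (minus strand) for Lcn2 and chr4:63280436-63280735 (plus strand) for Orm2.
Saa2: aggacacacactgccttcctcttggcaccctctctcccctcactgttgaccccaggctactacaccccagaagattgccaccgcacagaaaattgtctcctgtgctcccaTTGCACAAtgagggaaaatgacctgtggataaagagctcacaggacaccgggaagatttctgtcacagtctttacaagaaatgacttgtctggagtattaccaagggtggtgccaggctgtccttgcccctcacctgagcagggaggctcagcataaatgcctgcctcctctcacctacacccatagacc
Lcn2: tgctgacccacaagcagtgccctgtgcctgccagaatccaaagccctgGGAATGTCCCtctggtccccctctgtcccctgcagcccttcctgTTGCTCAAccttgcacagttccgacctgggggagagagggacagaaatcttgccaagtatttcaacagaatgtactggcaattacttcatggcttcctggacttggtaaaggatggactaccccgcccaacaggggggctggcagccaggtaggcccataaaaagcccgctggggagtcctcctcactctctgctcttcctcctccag
Orm2: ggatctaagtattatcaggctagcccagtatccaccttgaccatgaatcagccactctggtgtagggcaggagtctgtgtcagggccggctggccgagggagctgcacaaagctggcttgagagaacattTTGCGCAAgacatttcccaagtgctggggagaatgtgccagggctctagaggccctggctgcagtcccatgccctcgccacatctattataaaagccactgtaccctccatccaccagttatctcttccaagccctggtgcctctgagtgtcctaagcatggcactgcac
All 3 windows hold a C/EBP match, and that of Lcn2 also holds a kappa B match that does not overlap it. The C/EBP letters occurred in 13 of the 36 tested acute phase promoters (36.1%) and in 9.64% of the 10341 promoters of tested genes, and the kappa B consensus in 6 of 36 (16.7%) and 4.73%. The STAT letters were found in 7 of 36 (19.4%) and 7.34%. These 3 motifs were chosen after the values were seen. Of the other motifs searched, the E-box (CACGTG) was in 1 of 36 (2.78%) and 9.76%, the RORE core (AGGTCA) in 12 of 36 (33.3%) and 13.4%, and the antioxidant element (TGACNNNGC) in 2 of 36 (5.56%) and 13.3%. Both strands were searched. The C/EBP matches include Saa1, Saa2, Saa4, Orm1, Orm2 and Orm3, and the RORE matches include Saa1, Saa2, Saa3 and Saa4. Genes of a family may share promoter sequence, as the Saa1 and Saa2 windows do, so these are not counts of independent promoters. A match is a run of letters and does not show that a factor was bound there.

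Among the other leading genes that were lower with FT, Cyb561 had the smallest p of all genes. It encodes cytochrome b561, which passes electrons from ascorbate across the membrane of secretory vesicles. Its lowest, median and highest levels were 2.93, 6.48 and 9.07 CPM in FT10ppm and 3.70, 10.7 and 20.8 CPM in MT10ppm (log2 fold change -1.15, SE 0.19, edgeR adjusted p = 0.235). The EPA mouse again gave the lowest MT10ppm value, and the EA-isolated MT10ppm mice started at 8.19 CPM. The difference was -0.58, -1.24 and -0.66 in blocks 1, 3 and 4, and -1.06 in block 1 without the EPA mouse. DESeq2 called Cyb561 with an adjusted p of 8.87e-05, and over the alternatives its adjusted p lay between 8.87e-05 and 0.756. Cyb561 mostly went with Lcn2 from mouse to mouse. MT10ppm replicates 3, 4 and 5 were highest in its group for Cyb561 (20.8, 18.5 and 16.1 CPM) and for Lcn2 (866, 645 and 321 CPM). FT10ppm replicate 6 was highest in its group for each gene. MT10ppm replicate 1 was out of order, with Lcn2 above and Cyb561 below replicates 2 and 6. Whether the Cyb561 difference is separate from the acute phase difference was not tested.

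Fntb, the beta subunit of protein farnesyltransferase, had a median of 1.48 CPM (0.858 to 3.05) against 3.84 CPM (2.55 to 5.25; log2 fold change -1.16, SE 0.26). Crybb3, a beta-crystallin, had 1.92 CPM (1.08 to 4.61) against 4.03 CPM (1.90 to 10.9; log2 fold change -1.47, SE 0.36), and Serpina3c, a serine protease inhibitor, 0.386 against 2.09 CPM (log2 fold change -1.70, SE 0.45). The Serpina3c median of FT10ppm was close to the level of 3 counts, 0.222 to 0.344 CPM, so its fold is uncertain. Slc41a2, a magnesium transporter, was measured at 79.1 CPM (19.8 to 132) against 128 CPM (50.1 to 226; log2 fold change -1.002, SE 0.27). Cabyr, a calcium-binding protein known from sperm tails, was low in both groups, at most 0.591 CPM in FT10ppm and at least 0.723 CPM in MT10ppm. It was 1 of 5 genes (0.0483%) whose 2 groups did not overlap over all 14 mice. The others, chosen after their values were seen, were Nabp1 (1.93 to 6.94 against 7.54 to 11.1 CPM) and Vps37c (0.463 to 1.88 against 2.05 to 3.05 CPM), lower with FT, and Anp32a (221 to 288 against 162 to 217 CPM) and Snx9 (at least 27.44 against at most 27.37 CPM), higher with FT, which makes 3 below (0.029%) and 2 above (0.0193%). Random labels would separate 7 from 7 mice with a probability of 0.000583, the smallest p that the 3432 splits allow. The share of these 5 genes was no larger than that. Nabp1 binds single-stranded DNA, Vps37c belongs to the ESCRT-I sorting complex, Anp32a is a nuclear phosphoprotein and Snx9 a sorting nexin of endocytosis.

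Of the genes that were higher with FT by at least 2-fold, Rdh16, a retinol dehydrogenase, had the smallest p. Its levels were 1.41, 4.02 and 7.56 CPM (lowest, median, highest) with FT and 0.772, 1.34 and 5.52 CPM with MT (log2 fold change 1.498, SE 0.27, edgeR adjusted p = 0.377). The highest MT10ppm value belonged to the EPA mouse, and the EA mice of that group ended at 2.25 CPM. Fam13a had a median of 11.3 CPM (4.93 to 31.8) against 5.05 CPM (2.05 to 19.04; log2 fold change 1.33, SE 0.30), with differences of 0.81, 1.04 and 1.08 in blocks 1, 3 and 4, and 1.42 in block 1 without the EPA mouse. Nat8f6, an N-acetyltransferase, had 3.52 CPM (2.53 to 8.77) against 1.09 CPM (0.440 to 6.27; log2 fold change 1.57, SE 0.43). Acot1, a cytosolic acyl-CoA thioesterase induced by PPAR alpha, had 5.20 CPM (1.96 to 8.56) against 2.49 CPM (1.43 to 5.34; log2 fold change 1.09, SE 0.33). The kinase Mastl and cyclin B1 (Ccnb1), which act in mitosis, had log2 fold changes of 1.023 (SE 0.28) and 1.00 (SE 0.37) at medians of 1.28 and 1.43 CPM in FT10ppm. The major urinary protein genes Mup7 and Mup12 had log2 fold changes of 1.49 (SE 0.54) and 1.47 (SE 0.55), but FT10ppm spanned 0.142 to 8.44 CPM for Mup7, and members of this family are so alike that reads cannot be assigned to them with certainty.

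**Figure D3:**
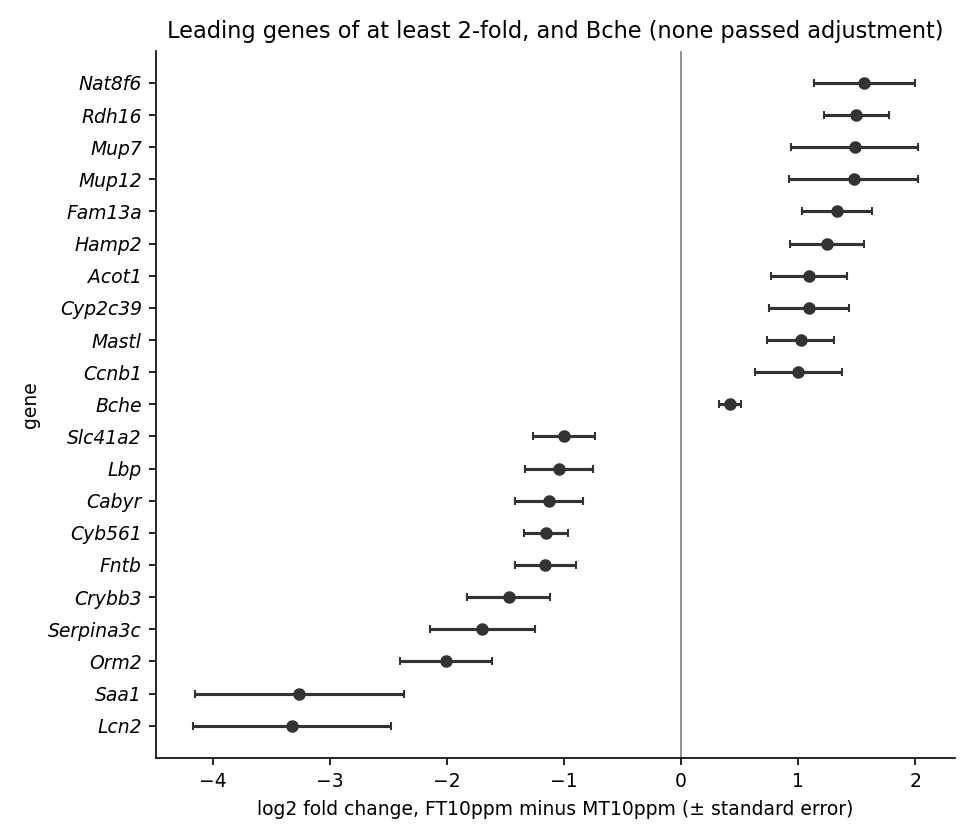
Fitted log2 fold change (FT10ppm minus MT10ppm, edgeR) of Bche and of the 10 genes in each direction with the smallest p among those of at least 2-fold; points are estimates and bars are standard errors. Bche (0.42) is the smallest difference shown and Lcn2 (-3.33) the largest.

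The enzymes that activate and clear OPPs were more often higher than lower with FT. In the list of OPP targets and hydrolases, 26 of 35 tested members were higher, against 49.6% of all genes, with a median log2 fold change of 0.12. Unadjusted p was under 0.05 for 6 higher members and 1 lower one, which is 20.0% of the list against 6.62% of all genes. Pon1, the paraoxonase that hydrolyses oxons in plasma, lay between 171 and 338 CPM in FT10ppm and between 134 and 173 CPM in the EA-isolated MT10ppm mice, with the EPA mouse at 260 CPM (log2 fold change 0.47, SE 0.18, edgeR adjusted p = 0.671). The carboxylesterase Ces2e had a log2 fold change of 0.32 (SE 0.11), the monoacylglycerol hydrolase Abhd6 of 0.28 (SE 0.08) and Ces4a of -1.04 (SE 0.38). Ces1c, the plasma carboxylesterase of mice, had a log2 fold change of 0.22 (SE 0.14), with a limma 95% interval from -0.03 to 0.41 on the log2(CPM + 1) scale.

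Among P450 families 1 to 3 and their electron donors, 28 of 39 tested members were higher with FT. Unadjusted p was under 0.05 for 6 of them and for 1 of the lower ones (17.9% against 6.62% of all genes), and the median log2 fold change was 0.09, smaller than the SD of 0.157 between mice of a group in the median level of the list. Cyp2c39 had a median of 15.7 CPM (3.56 to 42.4) against 6.74 CPM (3.22 to 17.4; log2 fold change 1.09, SE 0.34), with a difference of -0.11 in block 4 after 0.60 and 1.38 in blocks 1 and 3, and 1.22 in block 1 without the EPA mouse. Cyp2c54 (333 against 270 CPM, log2 fold change 0.65, SE 0.20) and Cyp2c29 (log2 fold change 0.49, SE 0.18) went the same way, and Cyp3a13 the opposite way (23.2 against 36.2 CPM, log2 fold change -0.46, SE 0.16). The Cyp2c genes are a family of similar sequences, and reads may be shared between them. Cyp1a2 (log2 fold change 0.06, SE 0.19) and Cyp3a11 (0.10, SE 0.19), which respond to the aryl hydrocarbon and pregnane X receptors, had limma intervals from -0.41 to 0.48 and from -0.31 to 0.43. The 4 tested flavin monooxygenases, Fmo1, Fmo2, Fmo4 and Fmo5, had log2 fold changes between -0.21 and 0.26, none with an unadjusted p under 0.05.

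Conjugating enzymes were also more often higher with FT. Of 26 tested glucuronosyltransferases, sulfotransferases and suppliers of their cofactors, 20 were higher with FT, with a median of 0.14. Unadjusted p was under 0.05 for 7 of them and for 1 of the lower ones (30.8% against 6.62%). Ugt1a5 ranged from 135 to 451 CPM around a median of 299 CPM in FT10ppm and from 68.6 to 254 CPM around 157 CPM in MT10ppm (log2 fold change 0.98, SE 0.26), and it shares its last exons with the other Ugt1a genes. Ugp2, which makes UDP-glucose, had medians of 457 and 328 CPM (log2 fold change 0.40, SE 0.11). In the glutathione list, 13 of 19 were higher with a median of 0.08. Of these, 4 had an unadjusted p under 0.05 (21.1% against 6.62% of all genes), led by Gstk1 of mitochondria and peroxisomes (13.3 against 10.2 CPM, log2 fold change 0.40, SE 0.11). Of 32 Nrf2 targets, 24 were higher with a median of 0.07, among them Gclc, the catalytic subunit that starts glutathione synthesis (log2 fold change 0.45, SE 0.14). Unadjusted p was under 0.05 for 9.38% of that list, near the 6.62% of all genes. Of 19 nuclear receptors and their partners, 13 were lower, with Esr1, the estrogen receptor alpha, at -0.60 (SE 0.20) and Ppara at 0.27 (SE 0.12).

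Genes of fat synthesis and oxidation were mostly higher with FT in the EA-isolated mice. Of 30 lipogenic genes, 26 were higher, 9 of them with an unadjusted p under 0.05 and no lower one (30% against 6.62% of all genes), and the median log2 fold change was 0.23. Me1, the malic enzyme that supplies NADPH, had a median of 92.4 CPM (65.5 to 161) against 67.02 CPM (43.4 to 170), and the 170 CPM belonged to the EPA mouse (log2 fold change 0.70, SE 0.17). The difference was -0.0047 in block 1 with that mouse included, 0.97 without it, 0.65 in block 3 and 0.54 in block 4. Acacb, which makes the malonyl-CoA that restrains fat oxidation, had a log2 fold change of 0.54 (SE 0.15), Gpam of glycerolipid synthesis 0.47 (SE 0.15), Elovl6 0.50 (SE 0.16) and the stearoyl-CoA desaturase Scd1 0.59 (SE 0.25). Of 45 PPAR alpha targets and oxidation genes, 36 were higher, with a median of 0.13. Unadjusted p was under 0.05 for 9 of them (20.0% against 6.62% of all genes). Aldh3a2, a fatty aldehyde dehydrogenase, had medians of 27.8 and 17.4 CPM (log2 fold change 0.74, SE 0.19) and Acaa1b, a peroxisomal thiolase, a log2 fold change of 0.89 (SE 0.25). Cyp4a10 had the largest fitted value of the list, 1.69 (SE 0.73), with FT10ppm from 0.880 to 30.3 CPM. Pctp, the phosphatidylcholine transfer protein, chosen after its values were seen, lay between 24.8 and 40.4 CPM with FT and between 11.9 and 28.2 CPM with MT (log2 fold change 0.77, SE 0.16, edgeR adjusted p = 0.466). Cholesterol synthesis was even, with 14 of 26 higher and a median of 0.01.

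In the unfolded protein and heat shock list, 26 of 34 tested genes were lower with FT, 5 of them with an unadjusted p under 0.05 (14.7% against 6.62% of all genes) and with a list median of -0.13, among them Creld2 (log2 fold change -0.43, SE 0.13), Syvn1 (-0.33, SE 0.10) and Atf4 (-0.22, SE 0.08). Of 40 interferon-stimulated genes, 32 were lower with a median of -0.11, but unadjusted p was under 0.05 for 3 (7.5%), a share near that of all genes, led by Zbp1, a sensor of nucleic acids (4.36 against 7.06 CPM, log2 fold change -0.96, SE 0.24). Alas1, the rate-limiting enzyme of heme synthesis, had a median of 41.2 CPM (at most 85.2) against 80.9 CPM (20.6 to 202; log2 fold change -1.35, SE 0.45), while the median of the 17 heme genes was -0.01. The metallothionein Mt2 stood at 206 and 138 CPM in MT10ppm replicates 3 and 4, both of block 3, at 36.5 CPM in FT10ppm replicate 2 and at or under 11.6 CPM in the other mice (log2 fold change -2.90, SE 1.41). In the cell cycle list 19 of 25 genes were higher with a median of 0.14. Unadjusted p was under 0.05 for 4 of them, such as the topoisomerase Top2a (log2 fold change 0.70, SE 0.20). It was also under 0.05 for 1 lower gene, the replication helicase subunit Mcm3 (-0.68, SE 0.23). Together these were 20.0% of the list, against 6.62% of all genes.

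The median edgeR difference was larger than the SD between mice of a group in the list's median level for 4 of the 26 lists: acute phase, OPP targets and hydrolases, insulin and feeding response, and cytosolic ribosomal proteins. That SD was taken on log2(CPM + 1), another scale. With the median limma difference on that scale, only acute phase of these 4 stayed larger (-0.41 against an SD of 0.33). The others fell below their SD: OPP targets and hydrolases (0.092 against 0.111), insulin and feeding response (0.117 against 0.134) and ribosomal proteins (0.043 against 0.061). Unadjusted p was under 0.05 for 0 of 19 circadian clock genes, 0 of 16 immediate early genes, 1 of 24 glucocorticoid-responsive genes, 1 of 16 p53 targets, 1 of 40 genes of gluconeogenesis, urea cycle and amino acid breakdown, 2 of 64 oxidative phosphorylation subunits and 0 of 30 cytosolic ribosomal proteins. Each of these shares was at most 6.25%, against 6.62% of all genes. The clock output gene Dbp varied widely between mice, from 11.8 to 725 CPM in FT10ppm and from 9.64 to 580 CPM in MT10ppm, the 725 CPM being that of FT10ppm replicate 2 (log2 fold change 0.91, SE 0.67). Bile acid genes had 4 higher and 1 lower of 27 with an unadjusted p under 0.05 (18.5% against 6.62% of all genes), among them the uptake carrier Slco1a4 (log2 fold change 0.69, SE 0.18) and Cyp7b1 of the alternative bile acid pathway (-0.69, SE 0.23). Of 32 genes of the growth hormone axis and sex bias, 3 lower ones had such a p (9.38%), Cyp7b1, Selenbp2 (-0.70, SE 0.24) and the complement gene C6 (-0.32, SE 0.11). In the insulin and feeding list 2 of 23 did (8.70%), Slc2a2 (0.31, SE 0.11) and Pygl (0.23, SE 0.10). In the list of cholinergic and other serine hydrolase targets 1 of 18 did (5.56%), the hepatic lipase Lipc (0.22, SE 0.09). These shares were near the 6.62% of all genes.

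**Figure D4:**
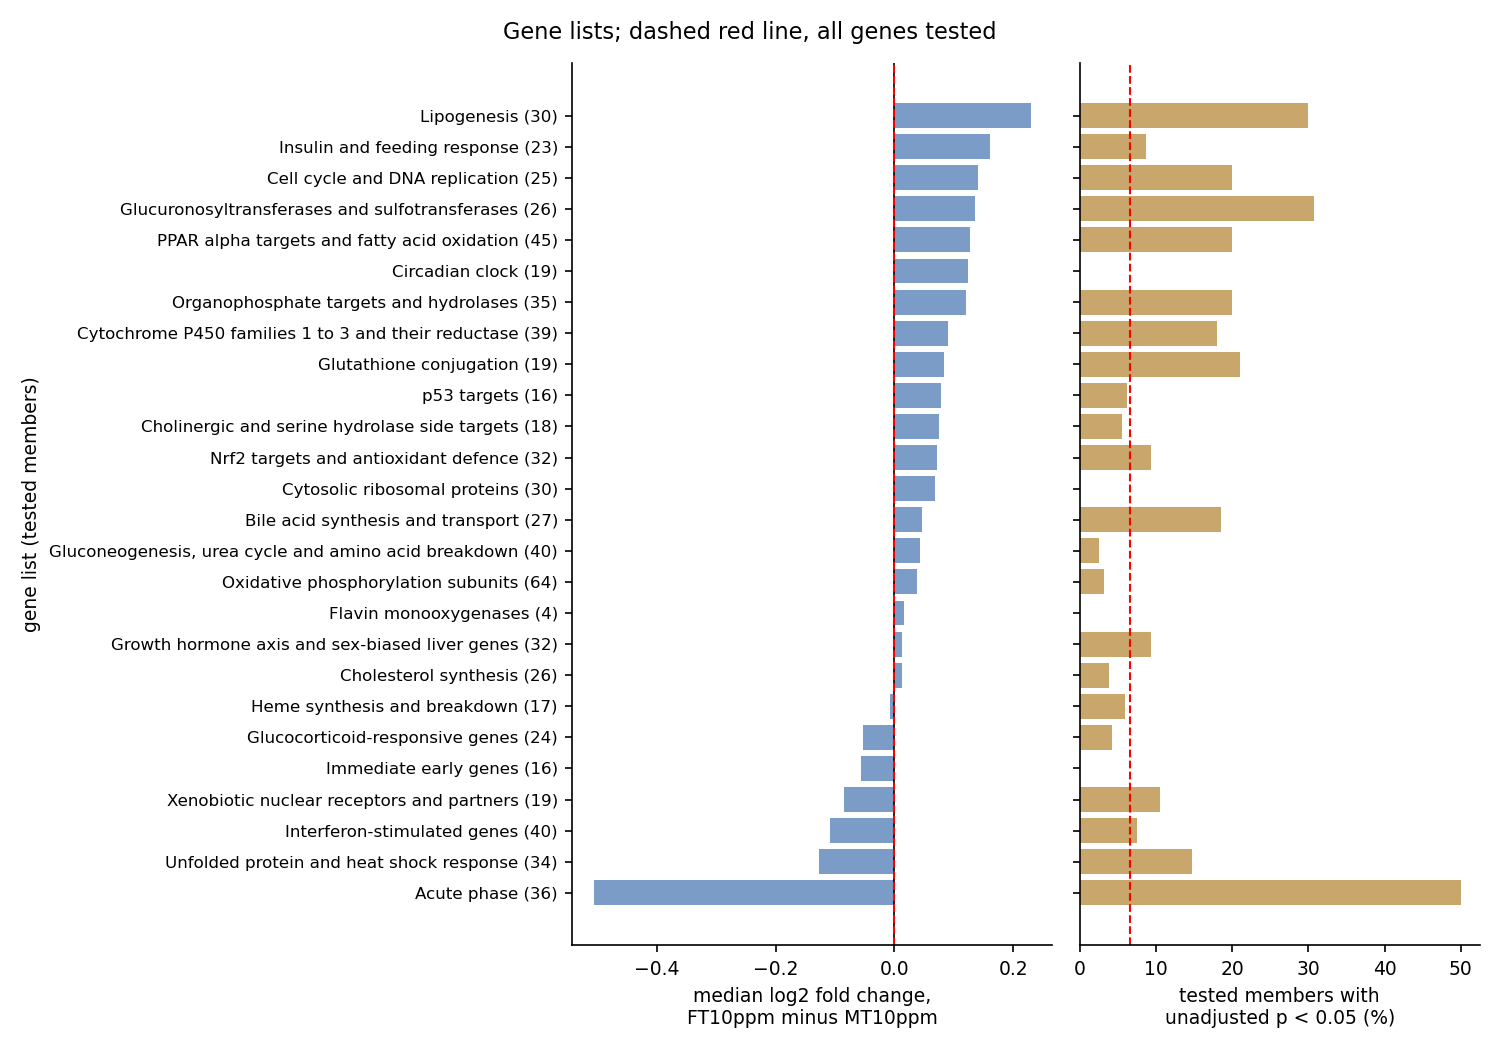
Median fitted log2 fold change (FT10ppm minus MT10ppm, left) and percentage of tested members with an unadjusted p under 0.05 (right) for 26 gene lists, with the number of tested members in brackets; the dashed red line marks all 10348 genes (6.62% on the right). Acute phase stands lowest, at -0.51 and 50.0%, and lipogenesis highest on the left, at 0.23.

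The absence of adjusted calls does not show that FT and MT acted alike at 10 ppm. The limma fit to log2(CPM + 1) gave each gene a 95% interval of the difference, with a median distance of 0.28 from estimate to bound on the log2 scale. For 10194 genes (98.5%) the interval lay wholly within 2-fold, and for 86.0% within 1.5-fold, on a scale that understates the change of low genes. It reached beyond 2-fold for 154 genes. These included Lcn2 (-4.46 to -1.13), Saa1 (-4.34 to -1.03) and Mt2 (-3.94 to 0.02). For Bche the interval was 0.23 to 0.58, and for Me1 0.30 to 1.07. These intervals are per gene and are not adjusted for the 10348 genes tested. Lcn2, Saa1, Mt2 and Me1 were also named for their small p. An interval that lies away from 0 or beyond 2-fold is therefore not a call, and limma called 0 genes.

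The levels at the other doses and in the 7 control mice, which were not tested, give the background. Bche was at 175 ± 33.3 CPM in control mice (SD, n = 7), between the FT10ppm and MT10ppm means, and at 188 ± 15.9, 201 ± 21.8 and 207 ± 35.7 CPM at 2.5, 5 and 20 ppm FT. With 25, 50 and 100 ppm MT it was at 173 ± 15.7, 183 ± 30.3 and 190 ± 34.01 CPM. The control mice, from 132 to 237 CPM, covered both 10 ppm groups. For Cyb561 the median was 11.9 CPM in control mice (5.09 to 32.1), 6.88 and 6.96 CPM at 2.5 and 5 ppm FT, and 11.5 CPM at 20 ppm FT. With 25, 50 and 100 ppm MT it was 8.06, 12.6 and 5.89 CPM, the first between the medians of FT10ppm and MT10ppm, the second above both and the third below both. Lcn2 spread most of all: control mice ran from 10.7 to 7230 CPM around a median of 689 CPM, above the medians of both 10 ppm groups. Its median was 26.6, 23.5 and 125 CPM at 2.5, 5 and 20 ppm FT and 63.9, 251 and 31.7 CPM at 25, 50 and 100 ppm MT. Me1 had medians of 55.2 CPM in control mice, 77.3, 92.8 and 70.9 CPM at 2.5, 5 and 20 ppm FT, and 55.998, 74.1 and 62.1 CPM at 25, 50 and 100 ppm MT.

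**Figure D5:**
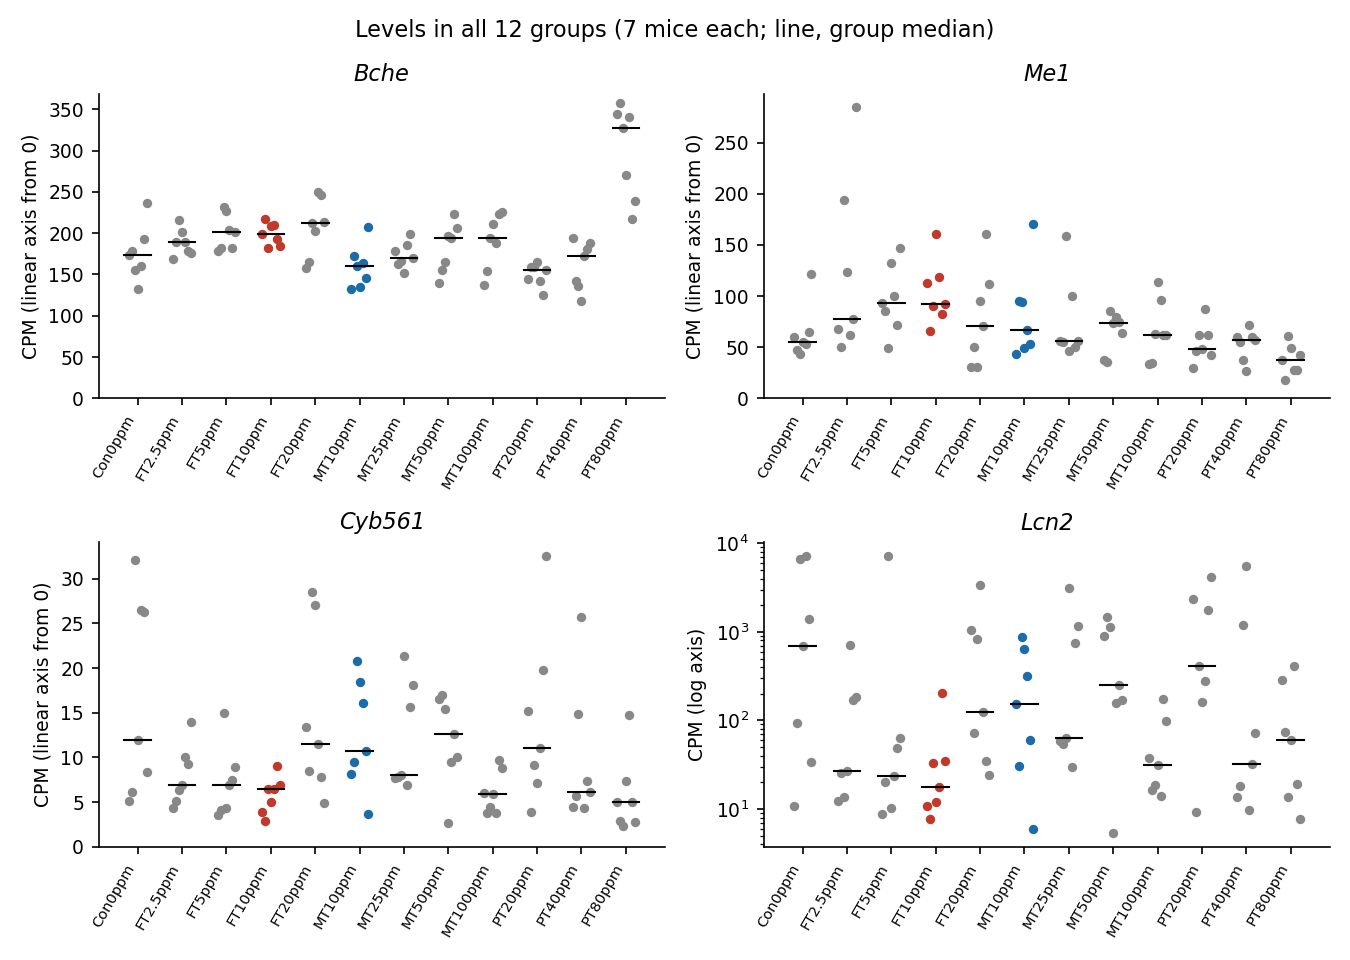
Level of Bche, Me1, Cyb561 (linear axes from 0) and Lcn2 (log axis) in CPM in the 12 groups of the series, 7 mice each (PT is the third OPP of the series); points are mice and lines are medians, with FT10ppm in red and MT10ppm in blue. The control mice cover both 10 ppm groups for Bche (132 to 237 CPM) and reach the highest Lcn2 level (7230 CPM).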

How the data were processed

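Liver RNA of 84 mice was measured by TempO-Seq, and the 14 mice fed 10 ppm FT or MT were compared, grouped by their labels. After trimming and STAR alignment to mm39, the authors used the E/M method of Partek on Ensembl transcripts, and the estimated counts per gene were deposited without normalization. Of these, 18.7% were not whole, and they were rounded for the count tests. The adjusted log2 values that the authors also deposited were not used. Gene names and positions come from GENCODE vM39 of GRCm39, the same assembly in another release (17660 of 17695 identifiers named).

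Genes with a median count above 8 over the 14 mice were fitted with edgeR 4.0.16 (TMM, quasi-likelihood, block and isolator as covariates). Called genes had a Benjamini-Hochberg adjusted p under 0.05. Intervals came from limma 3.58.1 on log2(CPM + 1). DESeq2 1.42.0, other filters, scalings, covariates, sets of mice and the omission of each mouse were alternatives, run in R 4.3.3. Permutation tests enumerated all the splits in Python 3.11.15 with numpy 2.4.6. The fits were tested on simulated data. Total counts of 8733512 to 13528658 per mouse set the precision, and counts without molecular identifiers cover counting error only.

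Genes and lists were chosen with earlier results of these data known. Named were Ache, Bche, the 10 genes per direction with the smallest p among those of at least 2-fold, and up to 4 members of each list with the smallest p. Others are marked as chosen after their values were seen, or serve as further members of a list.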

Additional observations from a re-analysis of the deposited data

Results flagged for a closer look

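In 5 of the 108 groups of 7 values looked at, 1 mouse lay far from the others of its group by Dixon's ratio of gap to range, and chance alone would give about 5.4 such groups. Of these, 4 belonged to MT10ppm replicate 7, the EPA-isolated mouse. Its Inmt level, an indolethylamine methyltransferase, was 71.9 CPM (ratio 0.682), and its Pon1 level was 260 CPM (ratio 0.612). Its periportal hepatocyte markers summed to 4483 CPM, with the next mouse at 3403 CPM (ratio 0.614), and its endothelial markers to 625.4 CPM, with the next at 566 CPM (ratio 0.636). The remaining value was Nabp1 in FT10ppm replicate 2, at 1.93 CPM (ratio 0.628). The part of isolation in the values of the EPA mouse was not tested.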

How the results depend on the processing

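DESeq2's Wald test called 20 genes, 10 of them at least 2-fold different, and edgeR without the filter on low counts called 4, all at least 2-fold different. Leaving out each mouse in turn gave 0 to 2 calls, and 0 to 2 of at least 2-fold. The 2 calls, Nat8f6 and Cyb561, came without MT10ppm replicate 2. The cause was not tested. The number of genes with an unadjusted p under 0.05 ranged over the 30 alternatives from 442, without MT10ppm replicate 1, to 1005, without FT10ppm replicate 1. Of 3878 values of named genes under the alternatives, 21 had an adjusted p under 0.05, and 2 had the other sign, both of the ribosomal gene Rps14, at -0.0025 with block alone and -0.065 without covariates, against 0.40. None of the 1137 list medians moved from its value in the main model by more than the SD between mice of a group. The Bche difference of mean log2(CPM + 1), as used in the permutation tests, lay between 0.29 and 0.40 under its alternatives. Its fitted log2 fold change lay between 0.33 and 0.46. The alternative without both mice that stood apart was chosen after seeing the data. No paired analysis was possible because the replicate numbers only name the mice and pair none across groups. Depth limited Ache and other genes near 1 CPM.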
